A study of Mus musculus with 12 samples.

Results

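Mast cells and basophils are the granulocytes that carry the high-affinity receptor for IgE. Here 8 genes listed for them, not all specific to them, were followed in cells sorted as hematopoietic stem cells (HSCs). The cells came from control and irradiated mice. The genes were Mcpt8, Prss34, Cpa3, Hdc, Ms4a2, Fcer1a, Cd200r3 and Gata2, taken by name from 31340 gene rows, and each had a single row in each of the 12 libraries. All libraries came from bone marrow of wild-type (WT) mice, and HSCs were defined in the study's methods as lineage-negative, Sca-1 and c-Kit positive and Flt3 and CD34 negative. The lineage antibodies were directed at T, B, myeloid and red cells and none at the IgE receptor. There were 3 libraries each of controls (Ctrl) and of the groups labelled IR, Ab_IR and L_IR, whose cells were all taken 3 days after radiation (IR). The labels and methods used here do not say what Ab and L stand for, give no age, and do not say whether a library held 1 mouse or a pool, so the p-values below measure the spread between libraries, which may be technical.

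Mast cells and basophils store proteases and histamine in granules, and release them when IgE bound to the receptor is crosslinked by antigen. The receptor is built from a chain that binds IgE (Fcer1a), a chain that amplifies the signal (Ms4a2) and a signalling chain that other Fc receptors share (Fcer1g). Both cell types arise in the bone marrow from progenitors in which GATA2 is active, and GATA1 and GATA2 bind the DNA word GATA followed by A, often as AGATAA or TGATAA. Mcpt8 and Prss34 are known as basophil proteases, whereas tissue mast cells are known for chymases and tryptases of other genes.

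The values were read as FPKM (fragments per kilobase of gene and library size), since the files name no unit. Without read counts, the depth of the libraries is unknown. The values summed to 344338 to 405123 per library, and 11467 to 12167 gene names reached 1 FPKM. In Ctrl replicate 1 the share of rows with a 0 was 44.1%, whereas it was 24.7% to 27.3% elsewhere. Nppa, the gene of an atrial hormone, was at 51.2 FPKM or more in 5 libraries, all of IR together with replicates 2 and 3 of Ctrl, and at no more than 0.26 in the other 7. This split coincided with IR against Ab_IR or L_IR except through Ctrl replicate 1, so the split and the groups cannot be told apart there. The data bore out the label HSC only in part, since Hoxb5, Fgd5, Mecom, Slamf1 and Ctnnal1, 5 of 10 HSC markers, stayed under 1 FPKM in all 12 libraries. Of the gated surface genes, Kit was at 6.70 to 25.45 FPKM and Ly6a, which encodes Sca-1, at 25.92 to 61.47 FPKM. Cd34 and Flt3, whose products the gate excluded, were at 3.66 to 20.65 and 0.96 to 12.07 FPKM.

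The 8 genes lie apart on the mouse genome (GENCODE M21, build GRCm38) and all are annotated as protein coding. Mcpt8 spans chr14:56082166-56085273 on the minus strand, Prss34 chr17:25298394-25300165 on the plus strand, Cpa3 chr3:20215620-20242181 on the minus strand and Hdc chr2:126593667-126619299 on the minus strand. Fcer1a spans chr1:173221284-173227214 on the minus strand, Ms4a2 chr19:11615523-11623719 on the minus strand, Cd200r3 chr16:44943678-44981380 on the plus strand and Gata2 chr6:88193891-88207032 on the plus strand. The only annotated overlaps were Mir6949 within Mcpt8, listed at up to 0.38 FPKM, and Mir7007 within Cpa3, listed at up to 2.16 FPKM. Mcpt8, Prss34 and Cd200r3 have close relatives in their gene families, and how shared reads were assigned was not given in the sources used here.

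RefSeq promoters (GRCm38.p6) were matched for all 8 genes, Gata2 with 2 start sites, and the 250 bases before each start were read for AGATAA and TGATAA on both strands. The windows that held a match are printed because these genes moved together and one of them, Gata2, encodes a GATA factor. Capitals mark the match, written TTATCT or TTATCA where it lies on the opposite strand, and the last base is the one before the annotated start.
Prss34 (chr17:25298144-25298393, plus strand): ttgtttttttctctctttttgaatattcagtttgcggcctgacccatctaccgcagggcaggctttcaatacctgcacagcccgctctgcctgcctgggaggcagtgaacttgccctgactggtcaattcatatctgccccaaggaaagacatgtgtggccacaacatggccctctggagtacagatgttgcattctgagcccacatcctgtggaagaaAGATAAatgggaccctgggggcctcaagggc
Cpa3 (chr3:20242182-20242431, minus strand): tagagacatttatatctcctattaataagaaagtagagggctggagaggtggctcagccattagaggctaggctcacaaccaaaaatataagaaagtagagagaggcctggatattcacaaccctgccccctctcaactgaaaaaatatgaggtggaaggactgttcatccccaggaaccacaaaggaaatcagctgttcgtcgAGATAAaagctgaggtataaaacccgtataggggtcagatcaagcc
Ms4a2 (chr19:11623720-11623969, minus strand): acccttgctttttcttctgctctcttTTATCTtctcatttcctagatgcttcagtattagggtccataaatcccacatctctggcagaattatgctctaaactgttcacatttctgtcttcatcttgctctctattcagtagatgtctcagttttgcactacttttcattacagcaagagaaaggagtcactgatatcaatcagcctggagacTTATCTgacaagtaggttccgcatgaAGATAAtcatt
Fcer1a (chr1:173227230-173227479, minus strand): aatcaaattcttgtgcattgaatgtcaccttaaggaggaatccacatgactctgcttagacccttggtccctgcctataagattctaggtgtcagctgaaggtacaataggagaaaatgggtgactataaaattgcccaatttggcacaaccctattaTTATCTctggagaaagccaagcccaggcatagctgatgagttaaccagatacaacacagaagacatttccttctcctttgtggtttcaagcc
Cd200r3 (chr16:44943428-44943677, plus strand): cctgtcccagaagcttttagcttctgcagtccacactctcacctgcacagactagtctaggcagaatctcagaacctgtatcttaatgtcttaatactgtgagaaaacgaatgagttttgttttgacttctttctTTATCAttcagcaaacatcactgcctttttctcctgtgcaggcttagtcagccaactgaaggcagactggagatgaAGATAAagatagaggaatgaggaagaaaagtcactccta

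AGATAA stood in the windows of these 5 of the 8 genes, against 9.99% of the 32851 windows of all RefSeq promoters of this length. Base composition was not matched, and the 5 windows held 38.8% to 52.4% G or C. Ms4a2 held 3 copies and the other 4 genes 1 each, and Cd200r3 also held TGATAA, which stood in 7.94% of all windows. Either word stood in 16.6% of them. The copies nearest to the start lay 31 to 26 bases before it in Prss34, 46 to 41 in Cpa3, 11 to 6 in Ms4a2, 92 to 87 in Fcer1a and 39 to 34 in Cd200r3. No window of Mcpt8, Hdc or Gata2 held either word. The RefSeq starts differ from the ends of the GENCODE spans given above. The windows of Hdc and of the later Gata2 start lie inside those spans, and that of Mcpt8 lies partly inside. The STAT word TTCNNNGAA stood in none of the member windows, against 7.02% of all windows, and the C/EBP word TTNNGCAA in those of Fcer1a and Cd200r3, against 9.56%. A match describes these letters alone, and binding at them was not measured.

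The granule proteases were the most abundant of the 8. Prss34, a trypsin-like serine protease of basophils, was at 321, 356 and 373 FPKM in Ctrl, at 129.8, 134 and 125 in IR, at 483, 479.9 and 445 in Ab_IR and at 279, 267 and 288 in L_IR. The 4 groups did not overlap, Ab_IR being highest and IR lowest. With a mean of 350.2 FPKM in Ctrl it ranked 129 among all gene rows, and 410 in IR.

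Mcpt8, the serine protease that defines mouse basophils, was at 172, 201 and 178 FPKM in Ctrl, at 53.8, 52.8 and 53.5 in IR, at 240.3, 233 and 238 in Ab_IR and at 133, 146 and 139.9 in L_IR. Its groups stood in the same order as those of Prss34 and again without overlap. Cpa3, a carboxypeptidase shared by mast cells, basophils and their progenitors, was at 56.6, 64.0 and 53.8 FPKM in Ctrl, at 18.99, 17.6 and 19.5 in IR, at 63.2, 55.8 and 54.3 in Ab_IR and at 41.7, 45.3 and 47.4 in L_IR. Ctrl and Ab_IR overlapped for Cpa3, with L_IR below both and IR lowest.

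Hdc, the enzyme that makes histamine from histidine, kept within the narrowest span. It was at 25.4, 23.9 and 25.3 FPKM in Ctrl, at 18.0, 16.7 and 16.5 in IR, at 26.2, 27.7 and 25.7 in Ab_IR and at 22.7, 21.9 and 22.4 in L_IR. The IR libraries were lowest without overlap, yet their mean was still 68.6% of that of Ctrl. The same share lay between 13.2% and 37.1% for the other 7 genes.

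The IgE receptor chains were at lower levels. Fcer1a, the chain that binds IgE, was at 13.5, 28.3 and 22.7 FPKM in Ctrl, at 4.49, 6.96 and 5.83 in IR, at 27.2, 25.2 and 26.2 in Ab_IR and at 15.9, 17.2 and 16.9 in L_IR. Ctrl spanned the levels of both Ab_IR and L_IR, those of L_IR only through its low replicate 1, and only IR stood clear of all others. Ms4a2, the amplifying chain, was at 17.5, 14.8 and 11.3 FPKM in Ctrl, at 1.95, 1.83 and 1.99 in IR, at 13.4, 12.7 and 12.8 in Ab_IR and at 9.83, 10.7 and 10.96 in L_IR. Here Ctrl replicate 1, the lowest Ctrl library for Fcer1a, was the highest library of all, and Ctrl and Ab_IR overlapped. Ms4a2 showed the largest difference between Ctrl and IR of the 8 genes, with 7.55 times the mean level in Ctrl.

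Cd200r3, a CD200 receptor family protein of the basophil and mast cell surface, was the scarcest. It was at 1.27, 1.26 and 1.02 FPKM in Ctrl, at 0.37, 0.29 and 0.41 in IR, at 1.04, 0.99 and 1.06 in Ab_IR and at 0.69, 1.01 and 0.83 in L_IR. All IR libraries lay below all others, and the other 3 groups overlapped with their neighbours in the order. Gata2, the transcription factor, was at 17.1, 15.5 and 17.0 FPKM in Ctrl, at 5.07, 4.89 and 5.47 in IR, at 17.2, 17.2 and 16.7 in Ab_IR and at 14.5, 13.7 and 14.03 in L_IR. Ctrl and Ab_IR overlapped for Gata2, L_IR lay just below them and IR far below.

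**Figure D1:**
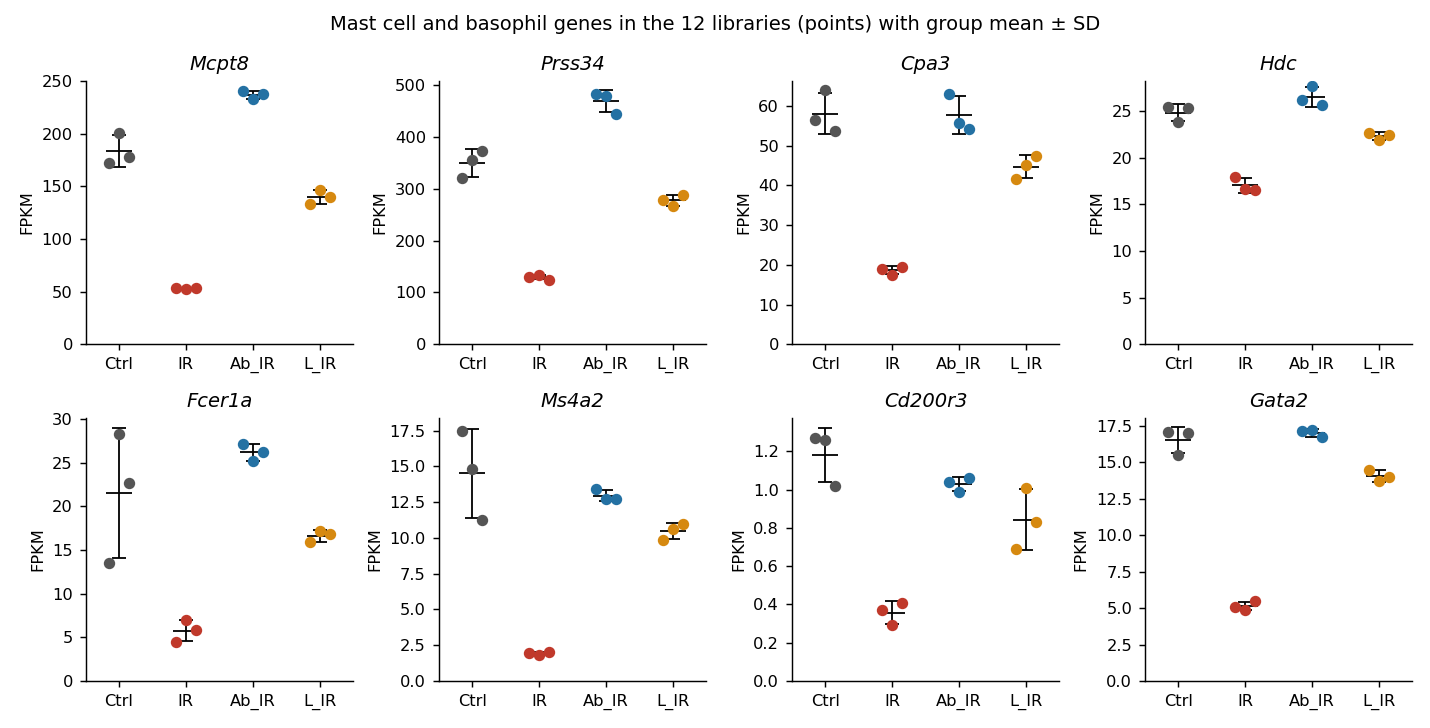
FPKM of each of the 8 genes (vertical axes, starting at 0) in the 3 libraries of Ctrl, IR, Ab_IR and L_IR (points), with the group mean and SD in black. The IR libraries are lowest for every gene, and Hdc shows the smallest step, its IR mean being 68.6% of that of Ctrl.

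The effect of radiation was addressed by setting the 3 IR against the 3 Ctrl libraries. Mcpt8 fell from 183.8 ± 15.4 to 53.4 ± 0.475 FPKM (mean ± SD, n = 3 each), Prss34 from 350.2 ± 26.7 to 129.7 ± 4.69 and Cpa3 from 58.1 ± 5.27 to 18.7 ± 0.986. In a limma fit across all genes, with a call at an adjusted p under 0.05 and a fold above 2, 6 of the 8 genes were called lower. The background share was 4.57% of the 12072 genes tested that were called lower and 3.03% that were called higher. Fewer cells of a type and less RNA per cell cannot be told apart in such bulk samples.

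On the log2(FPKM + 1) scale, where the added 1 shrinks the fold change of genes at low levels, Ms4a2 fell by 2.39 (SE 0.149, adjusted p = 8.94e-05). Mcpt8 fell by 1.76 (SE 0.0750, adjusted p = 2.70e-05), which placed it at rank 132 from the lowest fold change of all genes tested. Fcer1a fell by 1.69, with the widest interval of the 8, from -2.35 to -1.04 (95% interval, adjusted p = 0.00364). The wide interval goes with the low Fcer1a value of Ctrl replicate 1, and without that library the difference was -1.98. Cpa3 fell by 1.59 (SE 0.0838), Gata2 by 1.51 (SE 0.0718) and Prss34 by 1.42 (SE 0.0787).

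Hdc passed on adjusted p but not on the fold of 2, and Cd200r3 is given as a description only. Hdc differed by -0.52 (SE 0.0629, adjusted p = 0.00122) and Cd200r3 by -0.69 (SE 0.0999, adjusted p = 0.00249). Cd200r3 reached the filter of 1 FPKM only through Ctrl, so it could enter this test only by being higher there. The other 7 genes passed on adjusted p alone and had no overlap between the groups, beside 25.5% and 32.8% of all tested genes that did so in the lower direction. Inside the Nppa split, that is without Ctrl replicate 1, 6 genes were called as before.

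Ratios between pairs of the 8 genes were compared over the groups. Hdc stood at 1.5 ± 0.0295 times the level of Gata2 in Ctrl and at 3.32 ± 0.274 times in IR (mean ± SD of the per-library ratio of FPKM, n = 3). The ratio was 1.56 ± 0.0453 in Ab_IR and 1.59 ± 0.0195 in L_IR, so that for this pair the IR libraries stood apart. Mcpt8 stood at 0.526 ± 0.0447 times Prss34 in Ctrl and at 0.412 ± 0.0176 in IR, again without overlap. The ratio of Ms4a2 to Fcer1a was 0.263 to 0.434 in IR and 0.497 to 1.29 in Ctrl, the value of 1.29 coming from Ctrl replicate 1. The ratio of Cpa3 to Prss34 overlapped between Ctrl, at 0.144 to 0.18, and IR, at 0.131 to 0.156. For Cpa3 to Mcpt8 the group apart was Ab_IR, at 0.228 to 0.263 against 0.302 to 0.363 elsewhere. The ratios are a description and were not tested.

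**Figure D2:**
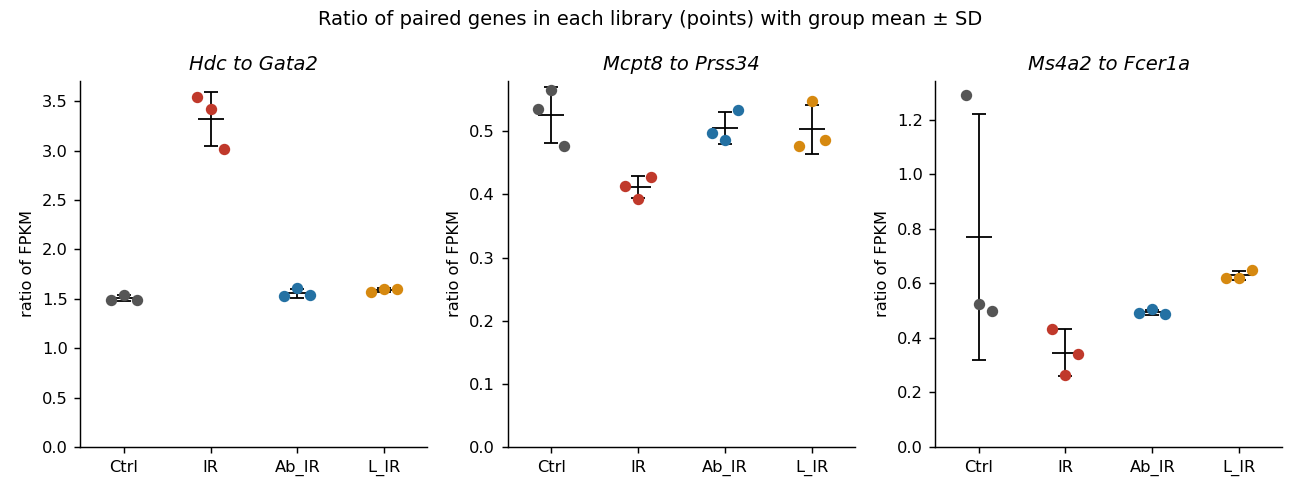
Ratio of FPKM of Hdc to Gata2, Mcpt8 to Prss34 and Ms4a2 to Fcer1a (vertical axes, starting at 0) in each library by group, with mean and SD in black. The IR libraries sit apart for Hdc to Gata2, at 3.02 to 3.54 against 1.49 to 1.61 in the other 9 libraries, and a single Ctrl library at 1.29 sets the spread of Ms4a2 to Fcer1a.

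The Ab_IR group was compared with IR. Mcpt8 was at 237 ± 3.72 FPKM in Ab_IR against 53.4 ± 0.475 in IR, a ratio of 4.44, and Ms4a2 at 13.0 ± 0.379 against 1.92 ± 0.0833, a ratio of 6.73. Of 7 genes tested 6 were called higher and none lower, beside calls for 5.11% of 12067 tested genes as higher and 2.46% as lower. Cd200r3 did not reach the filter and was not tested, its mean of 1.03 FPKM in Ab_IR being 2.89 times that in IR.

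Ms4a2 rose by 2.25 (SE 0.0457, adjusted p = 6.66e-08) and Mcpt8 by 2.13 (SE 0.0301, adjusted p = 1.89e-08) on the log2(FPKM + 1) scale, at ranks 62 and 74 from the highest. Fcer1a rose by 2.02, Prss34 by 1.85, Cpa3 by 1.58 and Gata2 by 1.55. Hdc was the exception, at 0.61 (SE 0.0472, adjusted p = 2.58e-05), which is short of the fold. All 7 passed on adjusted p and did not overlap, beside 39.4% and 41.4% of tested genes in that direction. With the Nppa split as a term in a fit of all 12 libraries, which rests on Ctrl replicate 1, Fcer1a was at 2.88 and Ms4a2 at 1.85, and the number of calls was unchanged at 6.

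The L_IR group was compared with IR in the same way, and the IR libraries are shared by the 2 comparisons. Ms4a2 was at 10.5 ± 0.584 FPKM in L_IR, 5.45 times the IR mean, Mcpt8 at 139.7 ± 6.62, 2.62 times, and Prss34 at 278 ± 10.7, 2.14 times. Again 6 of 7 tested genes were called higher and none lower, beside 4.09% and 2.13% of the 12163 tested genes. Ms4a2 rose by 1.97 (SE 0.0508, adjusted p = 2.67e-07), Fcer1a by 1.40, Mcpt8 by 1.37, Gata2 by 1.30, Cpa3 by 1.22 and Prss34 by 1.09. Hdc, at 0.37 (SE 0.0375, adjusted p = 0.000129), was again short of the fold. Cd200r3 was not tested, with a mean of 0.843 FPKM in L_IR, 2.36 times that in IR. All 7 passed on adjusted p and none overlapped, beside 40.8% and 43.1% of tested genes. With the Nppa split as a term the fold change of Fcer1a was 2.26 and that of Ms4a2 1.57, with 6 calls.

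**Figure D3:**
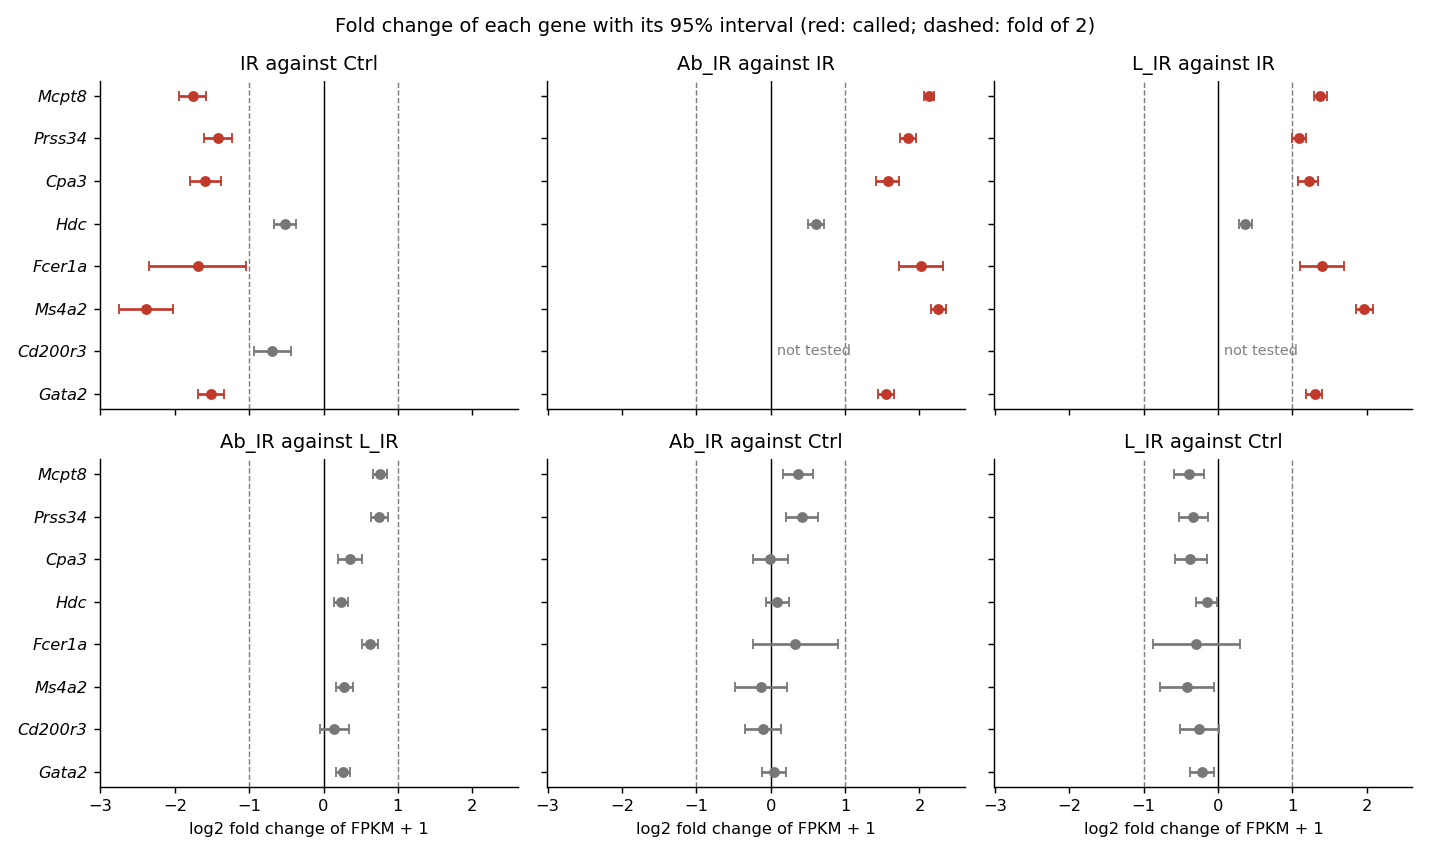
Log2 fold change of FPKM + 1 of each gene (horizontal axes) in the 6 comparisons, with the 95% interval from limma, in red where the gene was called and with dashed lines at a fold of 2. The called genes lie between -2.39 and -1.42 in IR against Ctrl and between 1.09 and 2.25 in the comparisons with IR as the base, and none is called in the lower panels.

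Ab_IR and L_IR lay on the same side of the Nppa split and were compared with each other. All 8 means were higher in Ab_IR, from 1.19 times for Hdc to 1.70 times for Mcpt8. None was called, as none passed the fold of 2, beside calls for 0.295% of 12194 tested genes as higher and 0.238% as lower. On adjusted p alone, 7 of 8 were higher in Ab_IR, beside 18.2% of tested genes, and the 7 did not overlap, beside 25.2%. The proteases of basophils led, with Mcpt8 at 0.76 (SE 0.0429, adjusted p = 4.30e-05, rank 95 from the highest) and Prss34 at 0.75 (SE 0.0476, adjusted p = 6.53e-05, rank 96). Fcer1a differed by 0.63, Cpa3 by 0.36, Ms4a2 by 0.28, Gata2 by 0.26 and Hdc by 0.24. For Cd200r3 the difference was 0.14 with an interval from -0.05 to 0.34 (adjusted p = 0.207). When immunoglobulin genes were left out and the rest rescaled, 5 of 8 passed on adjusted p, without Hdc and Ms4a2, and with all 12 libraries in one fit 5 passed, without Fcer1a and Ms4a2.

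Both groups were also set against Ctrl. In Ab_IR against Ctrl none of the 8 genes was called or passed on adjusted p in limma, beside calls for 0.692% of 12134 tested genes as higher and 0.231% as lower, and 1.45% that passed on adjusted p as higher. Mcpt8 differed by 0.37 (interval 0.16 to 0.57, adjusted p = 0.104) and Prss34 by 0.42 (interval 0.20 to 0.64, adjusted p = 0.0845). All Ab_IR libraries lay above all Ctrl libraries for both, and the share of all tested genes that did so was not counted. Without Ctrl replicate 1 both passed on adjusted p, Mcpt8 at 0.32 (adjusted p = 0.0463) and Prss34 at 0.36 (adjusted p = 0.0251). They also passed with all 12 libraries in one fit. The Nppa term leaves Ctrl replicate 1 as the only Ctrl library set against Ab_IR, so only values are given. With it Mcpt8 was at 0.46, Prss34 at 0.55, Fcer1a at 0.91 and Ms4a2 at -0.40. With quantile normalization Mcpt8 was at 0.09 (adjusted p = 0.492) and Prss34 at 0.24 (adjusted p = 0.208). For Gata2 the difference was 0.04 with an interval from -0.12 to 0.21, and for Cpa3 it was -0.01 with an interval from -0.24 to 0.23. For Fcer1a the interval ran from -0.24 to 0.91, the widest of the 8.

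In L_IR against Ctrl all 8 means were lower, at 71.3% of the Ctrl mean for Cd200r3 up to 89.9% for Hdc. None was called, beside 2.03% of 12251 tested genes called higher and 0.620% called lower. Only Mcpt8 passed on adjusted p, at -0.39 (SE 0.0838, adjusted p = 0.0380), where 4.08% of tested genes did so as lower. This count rested on single libraries and on the scaling. Without Ctrl replicate 1, Mcpt8, Prss34, Cpa3 and Fcer1a passed, whereas Mcpt8 did not pass without Ctrl replicate 2 (adjusted p = 0.0655), without Ctrl replicate 3 (adjusted p = 0.0699) or without any one L_IR replicate. With all 12 libraries in one fit 5 genes passed as lower and with quantile normalization 3, Cd200r3 in neither case. With immunoglobulin genes left out none did, Mcpt8 being at -0.18 (adjusted p = 0.164). The share of all tested genes that passed under these settings was not counted. The Nppa term leaves Ctrl replicate 1 as the only Ctrl library set against L_IR, so only values are given. With it Fcer1a was at 0.28 and the other 7 genes were lower than in Ctrl. The remaining differences were -0.42 for Ms4a2, -0.37 for Cpa3, -0.33 for Prss34, -0.29 for Fcer1a, -0.25 for Cd200r3, -0.22 for Gata2 and -0.15 for Hdc.

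The order of the groups was therefore alike for the 8 genes at its lower end. IR was lowest and L_IR next for each, and these groups did not overlap for any gene. At the upper end Ab_IR stood above Ctrl for Mcpt8, Prss34 and Hdc without overlap. The share of all tested genes that did so was not counted. These differences missed the threshold on adjusted p when the 6 libraries of the comparison were fitted alone. With all 12 libraries in one fit Mcpt8 and Prss34 passed and Hdc did not. Ab_IR and Ctrl overlapped for Cpa3, Ms4a2, Fcer1a, Gata2 and Cd200r3. L_IR overlapped with its upper neighbour for Fcer1a and Cd200r3. Summed over the 8 genes, Ctrl held 624 to 705 FPKM, IR held 228 to 235, Ab_IR 819.7 to 871 and L_IR 517 to 541, and Prss34 and Mcpt8 made up most of each sum.

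Genes of the wider mast cell and basophil program were listed by role, 81 genes in all, and did not move as one. Genes that fell below 1 FPKM in a library of a comparison, such as Cyp11a1 and Il6 in IR, could owe their place in the test to the other group and are left out of the counts. Of the 58 that remained in IR against Ctrl, 4 were called higher and 10 lower. Of 58 in Ab_IR against IR, 13 were called higher and 3 lower, and of 58 in L_IR against IR 12 and 3. Over all tested genes, without this restriction, 3.03% were called higher and 4.57% lower in IR against Ctrl. These shares were 5.11% and 2.46% in Ab_IR against IR and 4.09% and 2.13% in L_IR against IR. The median log2 fold change of all 61 tested in IR against Ctrl was -0.16, beside -1.55 over the 8 genes, Cd200r3 included, and -0.05 over all genes tested. None of 63 tested was called between Ab_IR and L_IR, of 62 between Ab_IR and Ctrl or of 63 between L_IR and Ctrl, where few genes of any kind were called.

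The signalling genes downstream of the IgE receptor differed in both directions. None of 14 was called in IR against Ctrl or Ab_IR against IR, which is near the background shares of calls above, and the adaptor Lat2 was called in L_IR against IR, at 1.09. On adjusted p alone, 5 were higher and 4 lower in IR against Ctrl, 5 higher and 7 lower in Ab_IR against IR, and 4 higher and 6 lower in L_IR against IR. Of all tested genes, 17.5% passed as higher in IR against Ctrl, 29.4% as lower in Ab_IR against IR and 26.0% as lower in L_IR against IR, and the shares in the opposite directions were the 25.5%, 39.4% and 40.8% given above. The kinase Lyn was at 18.4 to 21.9 FPKM in Ctrl and 39.2 to 40.7 in IR, and the adaptor Lat at 3.96 to 5.59 and 2.27 to 2.35. Fcer1g, the shared signalling chain, was at 25.4, 54.5 and 43.5 FPKM in Ctrl, with 47.9, 44.7 and 48.6 in IR, 67.6, 62.2 and 65.1 in Ab_IR and 50.7, 48.9 and 52.4 in L_IR. Its IR libraries lay within the Ctrl range, with a difference of 0.25 (adjusted p = 0.464), and Ab_IR exceeded IR by 0.46 (adjusted p = 0.000106). As for Fcer1a, Ctrl replicate 1 was the low library.

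Among granule genes, Ndst2, an enzyme that sulfates the heparin chains on which mast cell proteases are stored, was called lower in IR than in Ctrl at -1.07 and higher than IR at 1.13 in Ab_IR and 1 in L_IR. It was at 13.2 to 16.1 FPKM in Ctrl and 6.19 to 6.47 in IR. Tissue mast cell proteases were nearly absent. Of the 9 tissue mast cell markers with a row, 7 (Mcpt1, Mcpt2, Mcpt4, Tpsab1, Tpsb2, Mrgprb1 and Mrgprb2) stayed under 1 FPKM in all libraries, the chymase Cma1 reached at most 1.28, and none was listed at 0 throughout. The remaining marker, the transcription factor Mitf, was at 1.25 to 1.4 FPKM in Ctrl, with 0.77 to 0.99 in IR, 1.03 to 1.23 in Ab_IR and 1.5 to 1.7 in L_IR. Mitf and, in L_IR, Cma1 carried most of the summed list, which held 1.26 to 1.66 FPKM in Ctrl, with 1.02 to 1.21 in IR, 1.58 to 2.01 in Ab_IR and 2.99 to 3.23 in L_IR. Of the 8 basophil markers beyond the 8 genes, 4 were at 1 FPKM or more in all Ctrl and IR libraries, of which Ifitm1 was called higher in IR and none lower. The basophil cytokine Il4 was at 0.74 to 1.09 FPKM in Ctrl, with 0.11 to 0.25 in IR, 0.79 to 1.33 in Ab_IR and 0.17 to 0.59 in L_IR, and was not tested in IR against Ctrl. Il4, Il6, Il3ra, Itga2 and Cd200r4 had their lowest mean in IR, whereas Ifitm1 and Csf1 had their highest there and Cd200r1 had neither. Summed, these 8 markers ran opposite to the 8 genes in IR, with Ifitm1 as the largest part. They held 67.61 to 85.45 FPKM in Ctrl, 138.75 to 145.28 in IR, 63.67 to 68.96 in Ab_IR and 49.38 to 50.89 in L_IR.

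Of the mediator genes, Ptgs1, the constitutive cyclooxygenase, was called in the direction opposite to the 8 genes. Cyp11a1, a steroid-making enzyme, was at 3.45 to 5.08 FPKM in Ctrl, with 0.90 to 1.27 in IR, 4.33 to 4.65 in Ab_IR and 3.12 to 3.65 in L_IR, and is given as a description because it passed the filter only through the groups where it was high. Ptgs1 was at 12.9 to 14.5 FPKM in Ctrl and 32.0 to 33.3 in IR (1.19, adjusted p = 5.71e-05), and lower than in IR by -1.16 in Ab_IR and -1.10 in L_IR. Slc18a2, the transporter that loads histamine into granules, was at 3.77 to 5.17 FPKM in Ctrl and 1.70 to 2.16 in IR, a difference of -0.88 that passed on adjusted p only (0.00188).

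The receptors were called in both directions. Kit, the receptor for stem cell factor on which mast cells depend and also a gene of the sort gate, was at 21.3 to 25.5 FPKM in Ctrl and 6.70 to 7 in IR (-1.63, adjusted p = 3.83e-05), and higher than in IR by 1.28 in Ab_IR and 1.26 in L_IR. Il1rl1, the receptor for IL-33, was at 4.49 to 5.28 FPKM in Ctrl and 1.41 to 1.51 in IR (-1.26), and was called in Ab_IR against IR at 1.12 but not in L_IR against IR at 0.95. Il3ra, the IL-3 receptor chain of basophils, differed by -0.48 in IR against Ctrl, by 0.91 in Ab_IR against IR and by 0.56 in L_IR against IR, all short of the fold. Csf2rb, the chain that IL-3, IL-5 and GM-CSF receptors share, went the other way, from 22 to 26.5 FPKM in Ctrl to 75.1 to 75.4 in IR (1.62, adjusted p = 3.84e-05), and was lower than in IR by -1.62 in Ab_IR and -1.53 in L_IR. Il4ra, the IL-4 receptor chain, did likewise, with 8.49 to 9.79 FPKM in Ctrl and 33.9 to 34.4 in IR (1.79, adjusted p = 1.78e-05).

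Of the 12 listed transcription factors other than Gata2, Mitf fell below 1 FPKM in IR and is left out of the count. Of the other 11, 4 were called lower and Spi1 alone higher in IR against Ctrl. Of all tested genes, 4.57% were called lower and 3.03% higher. Gata1 was at 36.8 to 38.8 FPKM in Ctrl, at 6 to 7.04 in IR, at 39.4 to 42.1 in Ab_IR and at 25.04 to 26.1 in L_IR, with a fold change of -2.39 in IR against Ctrl (adjusted p = 8.69e-06), 2.50 in Ab_IR against IR and 1.84 in L_IR against IR. Tal1 and Zfpm1, partners of GATA factors that also act in red cell and platelet precursors, differed by -1.26 and -1.74 in IR against Ctrl. Irf8, a factor of monocytes and of basophil progenitors, differed by -1.60, and by 1.89 and 1.97 in Ab_IR and L_IR against IR. The partners Lmo2, at 71.9 to 81.2 FPKM in Ctrl and 68.01 to 69.4 in IR, and Runx1, at 8.25 to 10.6 and 7.02 to 7.4, were not called in any comparison. Of the 5 cytokine genes at 1 FPKM or more in all Ctrl and IR libraries, 3 were called lower in IR against Ctrl, beside the 4.57% of all tested genes. They were the chemokines Ccl3 and Ccl4, at -1.31 and -1.51, and Osm. Il6, which entered only through Ctrl, was at 4.34 to 6.92 FPKM in Ctrl and 0.86 to 1.12 in IR.

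**Figure D4:**
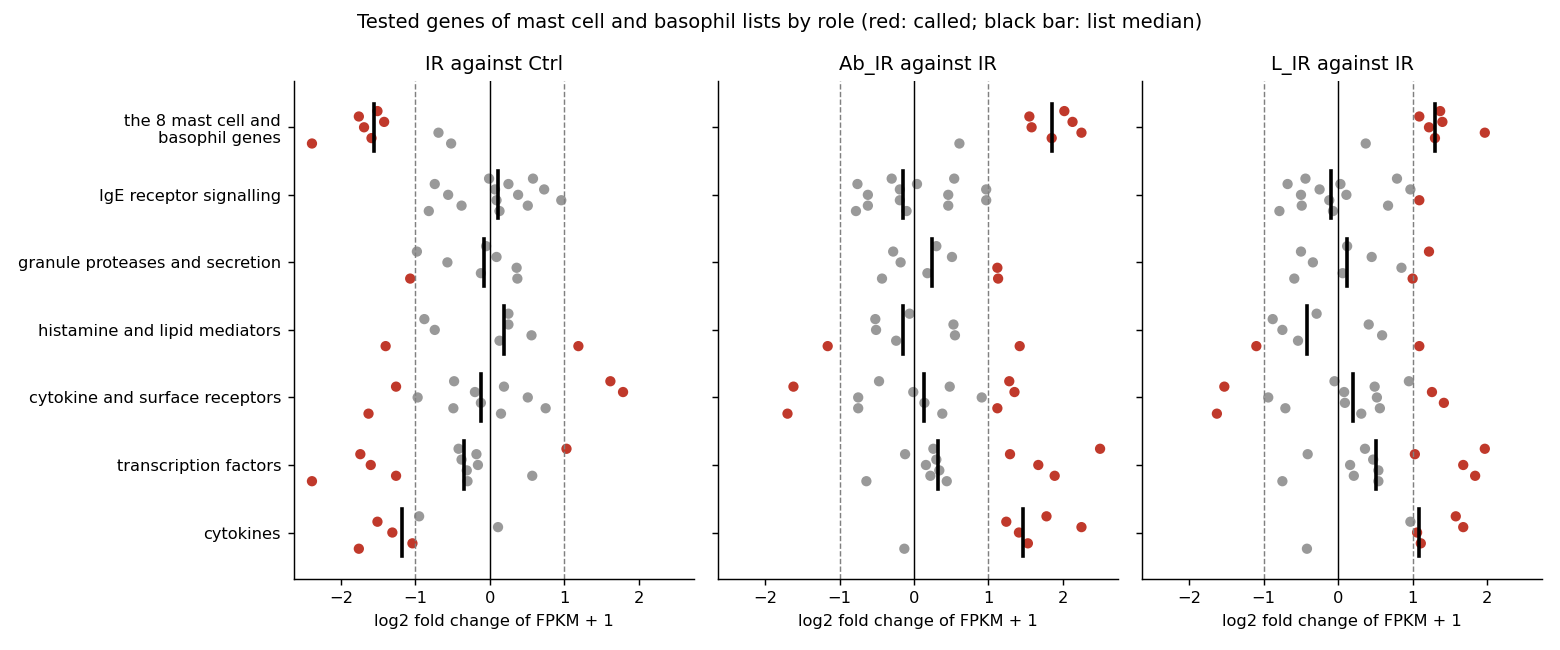
Log2 fold change of FPKM + 1 (horizontal axes) of the tested genes of the 8-gene set and of 6 role lists in IR against Ctrl, Ab_IR against IR and L_IR against IR, called genes in red and list medians as black bars. The median of the IgE receptor signalling list lies at 0.11, -0.14 and -0.09 in the 3 panels, and that of the tested genes of the 8-gene set at -1.55, 1.85 and 1.30.

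Markers of other cells moved with the 8 genes, and their part in the result was not tested. Of 9 eosinophil markers, Il5ra and Ccr3 fell below 1 FPKM in IR libraries and are left out of the count. The other 7 were called lower in IR against Ctrl and higher in both Ab_IR and L_IR against IR. The 9 markers summed to 4900.3 to 6510 FPKM in Ctrl, with 417 to 427 in IR, 6994 to 7134 in Ab_IR and 2953 to 2985 in L_IR. Erythroid markers, 8 of 8 tested called lower, summed to 2965 to 3463 in Ctrl, with 462 to 475 in IR, 2845 to 3060.0 in Ab_IR and then 1416 to 1473 in L_IR. No marker of either list was listed at 0 in all libraries. The eosinophil and erythroid sums thus held the same order of IR, L_IR and the remaining groups as the 8 genes, at higher levels. Of the 4 megakaryocyte and platelet markers at 1 FPKM or more in all Ctrl and IR libraries, 3 were called lower. The whole list summed to 74.7 to 101 FPKM in Ctrl, with 34.4 to 38.3 in IR, 176 to 179 in Ab_IR and then 111 to 117 in L_IR.

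Of 6 stromal markers tested in IR against Ctrl, 4 were below 1 FPKM in IR and entered only through Ctrl, and the other 2, Col1a1 and Sparc, were called lower. The list summed to 166 to 207 FPKM in Ctrl, with 10.6 to 11.4 in IR, 52.9 to 59.2 in Ab_IR and 51.3 to 53.4 in L_IR. Of 10 neutrophil markers, S100a8 and S100a9 were called higher in IR against Ctrl, and 6 of 10 passed on adjusted p as higher and none as lower. This list summed to 11023 to 12929 FPKM in Ctrl, with 16566 to 16830 in IR, 12082 to 12662 in Ab_IR and 8994 to 9203 in L_IR. Marker lists also differed where the 8 genes differed by less than the fold, and their part in those differences was not tested. Between Ab_IR and L_IR, 5 of 9 eosinophil, 3 of 8 erythroid and 4 of 10 neutrophil markers were called higher in Ab_IR. Between L_IR and Ctrl, 3 eosinophil, 5 erythroid, 4 neutrophil and 4 stromal markers were called lower and 4 of 7 B and plasma cell markers higher in L_IR. Between Ab_IR and Ctrl, 4 of 6 stromal markers were called lower and the platelet gene Ppbp higher in Ab_IR. Of the gated genes, Kit and Cd34 were called lower in IR against Ctrl, Flt3 fell below 1 FPKM in IR libraries and is left out of the count, and Ly6a differed by 0.75, short of the fold.

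**Figure D5:**
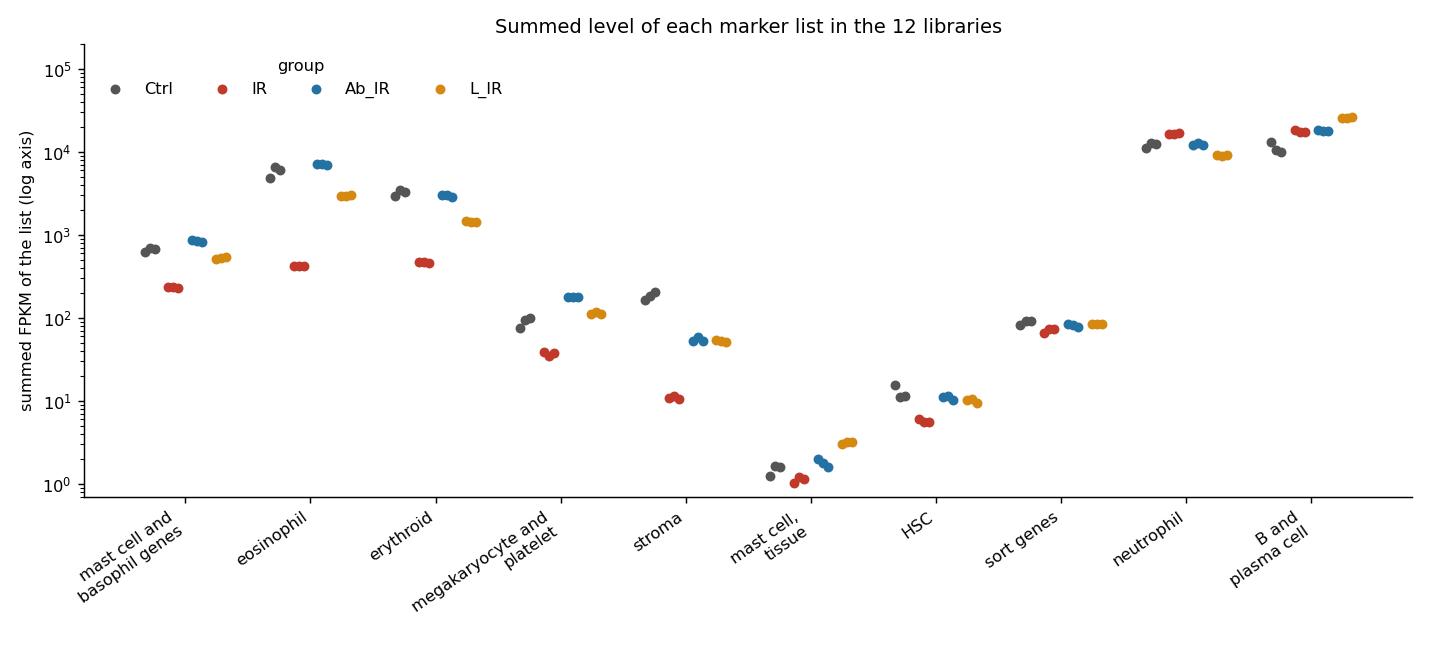
Summed FPKM (vertical log axis) of the 8 genes and of 9 other marker lists in the 3 libraries of each group. IR is lowest for the 8 genes, at 228 to 235, and for all other lists shown except the neutrophil and the B and plasma cell lists. The list of basophil markers beyond the 8 genes, for which IR is highest, is not shown.

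Genes whose levels ran most like the mean standardized level of the 8 over the 12 libraries, among 11870 names outside all lists with a mean of at least 1 FPKM, included Tsc22d1, Rhd, Minpp1, Aldh1a1, Leprot, Alad, Tspan13, Smox and Selenbp1. On the log2(FPKM + 1) scale their Pearson r lay between 0.993 and 0.997, a description over libraries that fall into 4 groups and share those groups' differences. Rhd, a red cell blood group protein, had means of 44.6 FPKM in Ctrl, with 6.50 in IR, 49.3 in Ab_IR and 30.6 in L_IR. Alad, an enzyme of heme synthesis, had means of 70.8 FPKM in Ctrl and 15.2 in IR. Without Ctrl replicate 1, r was 0.994 to 0.998 and these genes held ranks 2 to 29.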

How the data were processed

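HSCs from mouse bone marrow were profiled by stranded mRNA sequencing in 12 libraries, 3 per group, with groups taken from the treatment labels. The submitters' processing notes name fastp, HISAT2, StringTie and GRCm38, without versions, whereas the study's methods name RSEM for quantification. The authors deposited 1 table of gene values per library with no unit in the header. The deposited values were read as FPKM because, weighted by gene length, they summed to 913838 to 945611 in each library. No counts were used, so neither depth nor counting intervals are known.

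FPKM were taken as log2(FPKM + 1) and kept where at least 3 libraries of a comparison reached 1 FPKM. Each of 6 comparisons was fitted over its own 6 libraries with limma 3.58.1 (trended variance, R 4.3.3), without covariates, and p-values were adjusted by the Benjamini-Hochberg method over all genes tested. Calls required a fold of more than 2 in either direction besides an adjusted p under 0.05. The fits were tested on simulated data. The pseudocount, the filter, the scaling, the trend, the libraries fitted, a replicate block and leaving out each library were varied, and a term for the Nppa split was added after seeing the data.

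The 8 genes and all lists were chosen with earlier results of these data known. Genes of the role lists were named where called in at least 3 comparisons with a mean of at least 1 FPKM, together with Fcer1g, Kit, Il3ra, Csf2rb, Gata1, Il1rl1 and Slc18a2. Lat2, Lat, Lyn, Lmo2, Runx1, Mitf, Spi1, Osm, Ifitm1, Itga2, Cd200r4, Csf1, Il4 and Cma1 were named after their values were seen, as were the marker genes given beside list sums. The 10 most similar genes were taken by Pearson's r, of which 1 is not reported here. Positions came from GENCODE M21 and promoters from RefSeq GRCm38.p6. Python 3.11.15 and matplotlib 3.10.9 were used.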

Additional observations from a re-analysis of the deposited data

How the results depend on the processing

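The number of the 8 genes called stayed at 6 in IR against Ctrl, Ab_IR against IR and L_IR against IR and at 0 in the other comparisons under the alternatives run, except that 7 were called in IR against Ctrl with a pseudocount of 0.1, the added gene being Cd200r3, which passed the filter only through Ctrl, and 5 in each of the first 3 with a mean of at least 10 FPKM, where fewer genes could be fitted. Of 772 single values of the 8 genes, 760 kept direction and call, 11 changed sign and 1 was newly called. The changes of sign were in values against Ctrl that missed the threshold, and their cause was not tested. In Ab_IR against Ctrl, Cpa3 went from -0.01 to 0.00 with median ratio scaling, 0.06 without immunoglobulin genes and 0.03 with the Nppa term, and ranged from -0.07 to 0.06 when single libraries were left out, with 0.06 without Ctrl replicate 2, 0.01 without Ab_IR replicate 2 and 0.03 without Ab_IR replicate 3. Gata2 went to -0.01 with the Nppa term and ranged from 0.00 to 0.06 over the left-out libraries, and Ms4a2 from -0.29 to 0.00. In L_IR against Ctrl, Fcer1a went to 0.28 with the Nppa term and Hdc to 0.06 without immunoglobulin genes.

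Counts over all genes moved more. They were 918 in IR against Ctrl, 914 in Ab_IR against IR, 756 in L_IR against IR, 65 in Ab_IR against L_IR, and 112 and 325 for Ab_IR and L_IR set against Ctrl. With a mean of at least 10 FPKM they were 405, 367, 302, 42, 70 and 206, fewer genes being tested. With a pseudocount of 0.1 they were 1512 in Ab_IR against IR, 1294 in L_IR against IR and 165 in Ab_IR against L_IR. With the Nppa term they were 1960 in Ab_IR against IR, 1554 in L_IR against IR, and 811 and 876 for the same groups set against Ctrl. Ab_IR against Ctrl gave 73 without a filter, 57 without immunoglobulin genes and 60 to 123 when single libraries were left out, the lower values of 60 to 65 coming without an Ab_IR replicate. L_IR against Ctrl gave 207 without immunoglobulin genes. In the role lists, where none was called, 1 was called in Ab_IR against L_IR and 1 in L_IR against Ctrl with a pseudocount of 0.1. Without immunoglobulin genes 1 was called in L_IR against Ctrl.

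Leaving out immunoglobulin genes moved the median of all genes from -0.05 to 0.06 in IR against Ctrl, from 0.00 to 0.18 in L_IR against Ctrl and from 0.01 to -0.12 in Ab_IR against L_IR, where calls went from 36 higher and 29 lower to 25 and 38. Quantile normalization turned 497 higher and 259 lower calls in L_IR against IR into 373 and 300. Replicate numbers did not pair the libraries, as deviations of same-numbered libraries correlated at -0.27 to 0.21. With the replicate block the 8 genes had 6, 6, 6, 0, 0 and 0 calls, the role lists 16, 18, 17, 0, 0 and 0 over all their tested genes, and all genes 928, 914, 756, 66, 92 and 294, in the order given above. In L_IR against Ctrl, Mcpt8 no longer passed on adjusted p with the block or without a filter.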
